A study of Mus musculus with 2 samples.

Results

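The numbered RING finger genes are the protein-coding genes whose symbol is Rnf followed by a number alone. They were taken by symbol from the RefSeq gene table of the mouse assembly GRCm38.p6, with Rnf2 left out. The rule used no measured value, but earlier results of these data were known when it was set. The table holds 74 such genes among 21887 protein-coding genes on the assembled chromosomes. They lie on 18 chromosomes. Another 8 coding genes carry letters or more characters after the number (Rnf19a, Rnf19b, Rnf113a1, Rnf113a2, Rnf138rt1, Rnf144a, Rnf144b and Rnf212b) and were counted apart.

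The peaks come from chromatin immunoprecipitation and sequencing with an antibody against Usp16, a ubiquitin protease that acts on histone H2A. The cells were c-Kit and Sca1 positive bone marrow cells, a fraction enriched for blood stem and progenitor cells. They came from mice of the genotype Mx1 Cre:Usp16loxp/loxp, which carry Usp16 alleles flanked by loxP sites and a Cre recombinase under the interferon-responsive Mx1 promoter. An IgG immunoprecipitation of cells with the same description is the study's other library. Age, sex and pooling are not stated in the labels, nor is whether Cre had been induced, so the Usp16 content of the cells is unknown here. With 1 library per antibody and no replicates, no difference was tested, and each value below describes 1 deposited list of 5079 peaks. The list gives no expression, so the cell label could not be checked against marker genes.

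Many RING finger proteins are ubiquitin ligases or parts of them. Their RING domain, a fold held by zinc ions, brings a ubiquitin-loaded conjugating enzyme next to a substrate, and RING-between-RING (RBR) ligases pass the ubiquitin through a cysteine of their own first. The numbered family is defined by name rather than by descent. It holds ligases of the nucleus, which mark chromatin at DNA breaks or along transcribed genes, and ligases of the endoplasmic reticulum (ER), endosomes, lysosomes and cytosol.

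A gene was counted as carrying a gene-end peak when a listed peak overlapped, by 1 bp or more, the 1 kb to either side of an annotated end. Of the 74 genes, 14 carried such a peak (18.9%, exact Clopper-Pearson 95% interval 10.7 to 29.7%, counting error only). The same rule called 13.9% of all protein-coding genes, a share inside that interval. The carriers were Rnf4, Rnf6, Rnf7, Rnf13, Rnf26, Rnf31, Rnf34, Rnf41, Rnf44, Rnf114, Rnf115, Rnf167, Rnf185 and Rnf216. Each had a single gene-end peak, and the 14 peaks were distinct. Rnf126 alone held a peak inside the gene and away from its ends, where 4.58% of all coding genes did. The remaining 59 genes had neither kind. None of the 8 genes with characters after the number carried a gene-end peak (exact 95% upper bound 36.9%), and Rnf19b held 1 inside the gene (chr4:129082694-129083233, score 59.5).

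Promoter sequences of carriers are shown to place the peaks on the DNA they covered or lay beside. All 14 carriers had at least 1 promoter in the RefSeq promoter table, whose build GRCm38.p6 is the mm10 assembly of the peak list. Each promoter is a window of 300 bases, 250 before and 50 after the annotated start of transcription. The first lines below are the 6 carriers with the highest-scoring peaks over their own start. Rnf126 and Rnf185 were added after their values were seen, the first for a peak inside the gene and the second for its sequence composition. Sequences are written 5′ to 3′ in the direction of transcription, and capitals mark every match, on either strand, to a set of 10 short motifs named further on.
Rnf44: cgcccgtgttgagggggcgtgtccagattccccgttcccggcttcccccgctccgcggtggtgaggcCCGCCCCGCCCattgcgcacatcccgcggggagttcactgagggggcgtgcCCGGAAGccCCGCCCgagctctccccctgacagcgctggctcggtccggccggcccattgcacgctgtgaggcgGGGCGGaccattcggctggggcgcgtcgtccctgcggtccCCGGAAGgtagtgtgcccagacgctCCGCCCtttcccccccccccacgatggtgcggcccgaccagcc
Rnf167: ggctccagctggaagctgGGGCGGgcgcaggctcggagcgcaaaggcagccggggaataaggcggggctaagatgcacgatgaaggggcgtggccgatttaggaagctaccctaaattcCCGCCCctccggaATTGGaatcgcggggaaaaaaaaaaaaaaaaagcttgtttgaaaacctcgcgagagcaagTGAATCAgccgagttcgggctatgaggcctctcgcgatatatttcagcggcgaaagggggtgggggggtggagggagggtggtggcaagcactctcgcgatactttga
Rnf6: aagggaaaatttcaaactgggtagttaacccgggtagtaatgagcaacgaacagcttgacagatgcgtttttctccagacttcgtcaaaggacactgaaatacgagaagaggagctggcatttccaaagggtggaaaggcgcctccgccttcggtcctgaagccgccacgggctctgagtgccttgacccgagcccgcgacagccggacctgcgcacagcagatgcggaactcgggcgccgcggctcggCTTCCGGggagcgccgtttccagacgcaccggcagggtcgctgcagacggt
Rnf216: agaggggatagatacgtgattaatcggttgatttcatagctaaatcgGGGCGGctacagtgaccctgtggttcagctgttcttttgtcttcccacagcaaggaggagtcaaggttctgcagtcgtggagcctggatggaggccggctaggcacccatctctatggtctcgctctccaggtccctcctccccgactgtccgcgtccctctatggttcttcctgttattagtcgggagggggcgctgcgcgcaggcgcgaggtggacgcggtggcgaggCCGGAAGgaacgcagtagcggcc
Rnf115: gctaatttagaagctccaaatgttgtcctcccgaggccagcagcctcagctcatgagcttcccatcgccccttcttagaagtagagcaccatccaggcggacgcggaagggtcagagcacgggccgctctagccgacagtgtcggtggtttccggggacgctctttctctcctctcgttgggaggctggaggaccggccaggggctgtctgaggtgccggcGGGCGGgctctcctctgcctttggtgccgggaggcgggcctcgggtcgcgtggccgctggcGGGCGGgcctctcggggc
Rnf7: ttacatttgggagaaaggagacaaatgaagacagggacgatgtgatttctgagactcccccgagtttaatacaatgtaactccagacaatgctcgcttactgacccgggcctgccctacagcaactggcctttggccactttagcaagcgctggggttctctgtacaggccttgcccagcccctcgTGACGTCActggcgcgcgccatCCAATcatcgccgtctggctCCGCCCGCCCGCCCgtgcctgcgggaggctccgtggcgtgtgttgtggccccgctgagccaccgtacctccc
Rnf126: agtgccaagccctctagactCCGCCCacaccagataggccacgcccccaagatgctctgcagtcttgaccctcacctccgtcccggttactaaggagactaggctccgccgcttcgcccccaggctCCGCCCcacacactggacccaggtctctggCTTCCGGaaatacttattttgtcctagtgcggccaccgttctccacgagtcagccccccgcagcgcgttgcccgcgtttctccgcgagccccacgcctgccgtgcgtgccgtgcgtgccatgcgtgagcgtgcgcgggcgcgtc
Rnf185: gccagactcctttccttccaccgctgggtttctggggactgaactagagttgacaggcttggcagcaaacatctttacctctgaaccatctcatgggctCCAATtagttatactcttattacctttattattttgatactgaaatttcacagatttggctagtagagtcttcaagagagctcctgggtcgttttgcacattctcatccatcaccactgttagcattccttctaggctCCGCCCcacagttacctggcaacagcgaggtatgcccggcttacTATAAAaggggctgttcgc

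These promoters lie at chr13:54693911-54694210 (minus strand) for Rnf44, chr11:70646985-70647284 (plus) for Rnf167 and chr5:146221408-146221707 (minus) for Rnf6. Those of Rnf216 and Rnf115 lie at chr5:143112971-143113270 (minus) and chr3:96727361-96727660 (plus). Rnf7 has its promoter at chr9:96478626-96478925 (minus), Rnf126 at chr10:79766903-79767202 (minus) and Rnf185 at chr11:3452907-3453206 (minus). The peak covered all 300 bases of the first 6. It covered 294 bases of the Rnf126 promoter and 34 bases of the Rnf185 promoter.

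Scores of the 14 peaks ran from 50.3 to 480.0 with a median of 76.9. Scores are those the authors deposited, given by the peak caller with no stated unit, and the smallest listed is 50. At or above the list's median score, 9 of the 74 genes carried a gene-end peak (12.2%, beside 7.99% of all coding genes). The best gene-end peaks of all 3033 coding carriers had a median of 75.6, and 7 of the 14 Rnf peaks lay above that value and 7 below. Rnf44 stood apart from the others of the family. Its peak ranked 31 among all 5079, while the next, at Rnf167, scored 154 and ranked 442. The peaks at Rnf41 and Rnf114 (50.3 and 51.9) were close to the lowest value listed. Peak widths ran from 566 to 1470 bp with a median of 833 bp, beside 801 bp for the best gene-end peaks of all coding carriers.

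**Figure D1:**
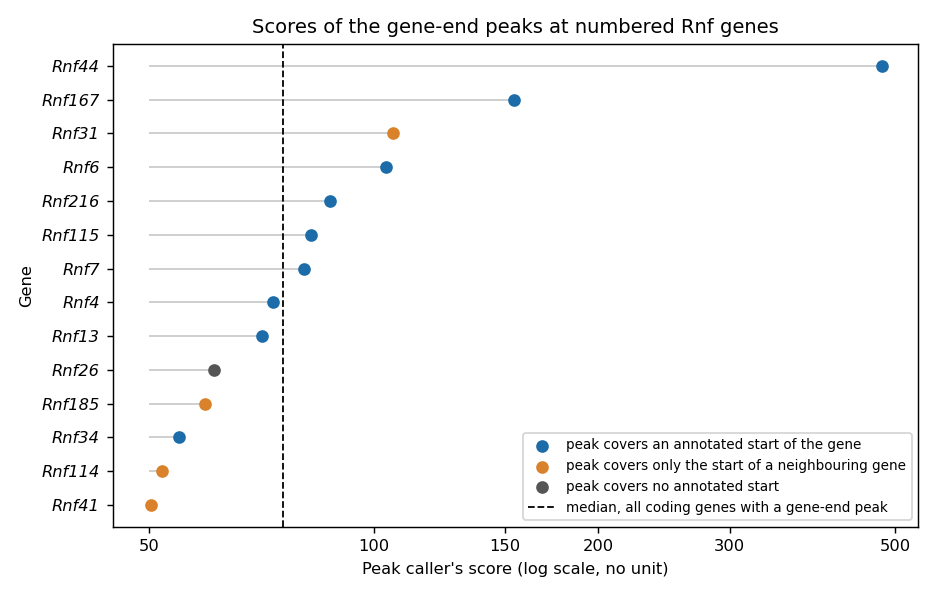
Peak caller's score (log axis, no unit) of the gene-end peak at each of the 14 carriers, from 1 library, with the median of all coding carriers, 75.6, as a dashed line. Colours show whose annotated start the peak covers. Rnf44 lies at 480.0, and the other 13 lie between 50.3 and 154.

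Peaks at the carriers lay mostly over the start of transcription. In 9 of the 14 genes the peak covered an annotated start of the gene itself (64.3%), where this held for 80.8% of all coding carriers with an annotated start. These 9 were Rnf44, Rnf167, Rnf6, Rnf216, Rnf115, Rnf7, Rnf4, Rnf13 and Rnf34. Of the other 5 genes, 4 had a peak that covered the start of a neighbouring gene instead, namely Rnf31, Rnf41, Rnf114 and Rnf185. Over all coding carriers whose peak covers no start of their own, 41.6% had a peak over another gene's start. Rnf26 was the remaining gene, and its peak covered no annotated start. By the gene's orientation 13 peaks lay at the 5′ end, and that of Rnf31 lay at the 3′ end. Among all coding carriers with a known orientation, 7.16% had a peak at the 3′ end only.

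**Figure D2:**
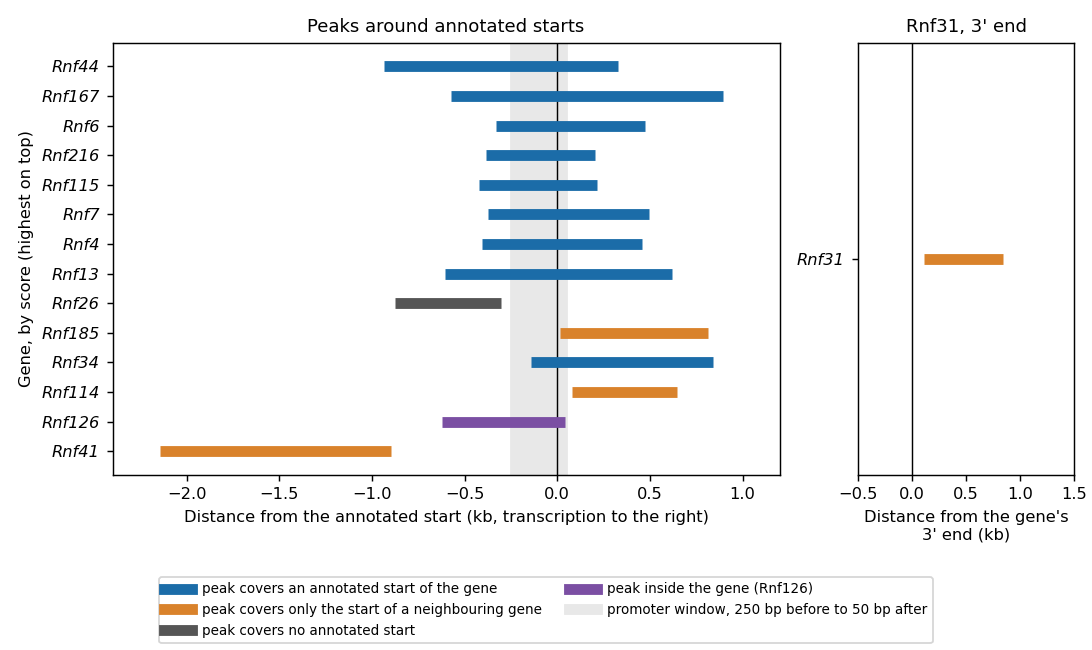
Extent of each peak relative to the most upstream annotated start of its gene (kb, transcription to the right), with Rnf31 drawn against its 3′ end on the right. Blue bars cross the start at 0. The violet bar is the inside peak of Rnf126, which is not a gene-end carrier, and it also crosses the start. The bars of Rnf26 and Rnf41 end 306 and 898 bp before the start, and those of Rnf185 and Rnf114 begin 16 and 82 bp after it. The Rnf31 bar begins 109 bp past the gene's end.

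The role groups below are small, and their counts stand beside the 13.9% of all coding genes with a gene-end peak. Differences between groups were not tested. Of the 21 genes placed in no role group, Rnf44 and Rnf6 carried peaks. Rnf44 spans chr13:54679399-54694076. Its peak of score 480.0 (chr13:54693634-54694895, 1262 bp) reached from 935 bp before the start to 326 bp after it, and no end of another annotated gene lay within 1 kb of the peak. A second annotated start of Rnf44 was not covered. Rnf6 encodes a nuclear ligase known to modify the androgen receptor and spans chr5:146209193-146221457. Its peak (score 104, chr5:146220983-146221787) covered 1 of 3 annotated starts, the most upstream. No end of another gene lay within 1 kb of it.

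The protease-associated transmembrane ligases were represented by a paralogous pair. Rnf167 (chr11:70647230-70651421) had the second highest score of the family, 154. That peak (chr11:70646660-70648129) was also the widest, at 1470 bp. It also covered the start of Slc25a11, which encodes the mitochondrial oxoglutarate carrier, lies on the opposite strand and starts 196 bp from the start of Rnf167. Rnf13 (chr3:57736044-57835425), whose product acts in ER stress signalling, had a peak of score 70.8 (chr3:57735450-57736676). Its midpoint lay 6.0 bp from the annotated start, and no end of another gene lay within 1 kb of the peak. The other 8 of these 10 genes had no peak: Rnf43, Rnf128, Rnf130, Rnf133, Rnf148, Rnf149, Rnf150 and Rnf215. Their nearest midpoints lay between 38.4 and 1603 kb away. Rnf128, the single numbered member on chromosome X, was the farthest, and Rnf133, Rnf148 and Rnf149 were also more than 1000 kb from a peak. Of the coding genes on chromosome X, 3.73% carried a gene-end peak, beside 13.9% of all coding genes.

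Of the 4 RBR ligase genes, Rnf216 and Rnf31 carried peaks and Rnf14 and Rnf217 did not. Rnf216 (chr5:142990893-143113041) encodes a ligase that acts on Toll-like receptor signalling. Its peak of score 87.2 (chr5:143112819-143113407) spanned the start, from 387 bp before to 201 bp after. No end of another gene lay within 1 kb of that peak. Rnf31 (chr14:55591713-55603674) encodes the catalytic subunit of the linear ubiquitin chain assembly complex. The peak counted for it (score 106, chr14:55603783-55604515) lay wholly outside the gene, 109 bp past its 3′ end and 12041 bp from its start. It covered the start of Irf9, a subunit gene of an interferon-responsive transcription factor, whose annotated extent begins 311 bp beyond the end of Rnf31. The start of Rnf31 itself had no listed peak. Rnf14 and Rnf217 lay 20.5 and 55.9 kb from the nearest midpoint.

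The genes grouped under innate immunity and signalling had 4 carriers among 12, where 13.9% of all coding genes were carriers. Their scores ran from 50.3 to 82.4. Rnf115 (chr3:96727597-96791155) had a peak of 82.4 (chr3:96727189-96727823) that also covered the start of Polr3c, an RNA polymerase III subunit gene on the opposite strand that starts 172 bp away. Rnf34 (chr5:122850112-122868945), a ligase for caspases, had one of 54.8 (chr5:122850048-122851026). This peak covered 190 of the 300 promoter bases and lay 112 bp from an end of the lncRNA gene Gm33044. Rnf114 (chr2:167492645-167516173) had one of 51.9 (chr2:167492727-167493292) that began 82 bp past its start. That peak covered the start of Spata2, a gene on the opposite strand whose annotated extent overlaps Rnf114 and whose product binds the complex of the Rnf31 protein. Rnf41 (chr10:128411616-128441441), a ligase for growth factor receptors, had the lowest score, 50.3. Its peak (chr10:128409472-128410718) ended 898 bp before the start of Rnf41 and covered a start of Nabp2, which encodes a single-stranded DNA binding protein of DNA repair.

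The other 8 genes of that group had no peak. They were Rnf11, Rnf125, Rnf135, Rnf146, Rnf165, Rnf166, Rnf213 and Rnf220, with nearest midpoints 9.19 to 527 kb away. Of the 4 carriers, none had a peak free of other gene ends, so signal at these genes cannot be told apart from signal at their neighbours.

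Genes for ligases of the ER and other membranes had 2 carriers among 14 (13.9% of all coding genes were carriers). Rnf185 (chr11:3415973-3452956), which acts in the degradation of ER proteins, had a peak of 59.4 (chr11:3452142-3452940). The peak lay wholly inside the gene and began 16 bp past its start, and it covered the start of the lncRNA gene 8430429K09Rik, which lies on the opposite strand. Rnf26 (chr9:44110781-44113051), an ER ligase that positions endosomes, had one of 61.1 (chr9:44113357-44113928) lying wholly upstream, 306 bp before the start. No other annotated gene end lay within 1 kb of that peak. Rnf5, the paralogue of Rnf185, had none, nor had Rnf24, Rnf103, Rnf121, Rnf122, Rnf139, Rnf145, Rnf152, Rnf170, Rnf182, Rnf183 and Rnf186. Nearest midpoints for these 12 lay between 14.3 and 307 kb away.

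Of the 9 genes for ligases of chromatin and DNA damage, Rnf4 alone carried a gene-end peak (13.9% of all coding genes did). Rnf4 (chr5:34336250-34353445) encodes a ligase directed to SUMO-modified proteins. Its peak of 73.3 (chr5:34335845-34336705) covered 2 of 3 annotated starts and lay wholly inside the overlapping non-coding gene A830049F12Rik, 500 bp from its nearer end. Rnf126 (chr10:79758515-79771448), a ligase of protein quality control that also acts in DNA repair, held the single inside peak, with a score of 50.9 (chr10:79766909-79767575). This score was close to the lowest value listed, 50. That peak covered the gene's 1 annotated start in the promoter table, which lies 4496 bp from the nearer end of the longer gene record. Counted by annotated starts, Rnf126 was therefore a carrier and Rnf31 was not, and the number of carriers was again 14, now of the 59 genes with an annotated start (23.7%, beside 14.2% of all coding genes with one).

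No peak was listed at Rnf8 and Rnf168, which act in the pathway that ubiquitinates histone H2A at DNA breaks. Nor was one listed at Rnf169, which binds that mark. The H2B ligase genes Rnf20 and Rnf40 had none either, nor had Rnf111 and Rnf138. The nearest midpoint was 19.4 kb from an end of Rnf8, 30.1 kb from Rnf168, 48.2 kb from Rnf169, 11.7 kb from Rnf40 and 519 kb from Rnf20. Absence from the list says only that no peak was listed there, and the settings that decided which peaks were listed are not stated.

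Rnf7, a subunit gene of cullin ubiquitin ligases (chr9:96470937-96478675), had a peak of 80.5 (chr9:96478179-96479047). It reached from 372 bp before to 496 bp after the start, and no end of another gene lay within 1 kb of it. The 3 germ-line genes, Rnf17, Rnf151 and Rnf212, had none. The other 19 genes in no role group had none either, among them Rnf10, Rnf25, Rnf32, Rnf39, Rnf112, Rnf123, Rnf141, Rnf157, Rnf180, Rnf181, Rnf187, Rnf207, Rnf208, Rnf214, Rnf222, Rnf223, Rnf224 and Rnf225. Their nearest midpoints lay between 3.74 and 376 kb away.

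Several of these peaks were shared with neighbouring genes. Of the 14 peaks, 8 also came within 1 kb of an end of another gene (57.1%), where 51.8% of all coding carriers had a best peak of this kind. The other gene was protein-coding in 5 cases and non-coding in 3. In 6 cases the peak covered that gene's start. Peaks with no end of another gene within 1 kb were found at Rnf6, Rnf7, Rnf13, Rnf26, Rnf44 and Rnf216. Those 6 are 8.11% of the family, and 6.76% of all coding genes had such a peak.

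Of 13 pairs of related members, both genes carried a gene-end peak in 1 pair, Rnf13 and Rnf167, and neither did in 8. One partner alone did in 4 pairs, among them Rnf185 with Rnf5, Rnf115 with Rnf126 and Rnf114 with Rnf166. These counts stand beside carrier shares of 18.9% in the family and 13.9% over all coding genes. Whether partners were alike more often than those shares give was not tested. In the pair of Rnf115 and Rnf126 both had a peak over an annotated start, with scores of 82.4 and 50.9.

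Across chromosomes the carriers fell on 8. Chromosome 5 held 4 of them (Rnf4, Rnf6, Rnf34 and Rnf216) among its 7 numbered Rnf genes, where 15.8% of its coding genes carried a peak. Both members on chromosome 3 were carriers (15.9% of its coding genes). None was found among the 8 members on chromosome 4 (15.1%) or the 5 on chromosome 7 (13.6%), and 2 of 12 on chromosome 11 carried one (14.8%). Differences between chromosomes were not tested.

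Some genes without a peak of their own lay near one. Of the 60 non-carriers, 9 had a peak midpoint within 10 kb of an end, which with the carriers made 23 of 74 genes (31.1%, beside 22.0% of all coding genes). Both shares include the carriers themselves, 18.9% of the family and 13.9% of all coding genes, and their difference was not tested. Apart from the inside peak of Rnf126, each of these lay at an end of another gene. The peak nearest to Rnf207 was the one at Rpl22, a ribosomal protein gene, with a score of 302 and 6.81 kb away. Rnf25 lay 5.57 kb from a peak of 122 at Bcs1l and Zfp142, and Rnf39 lay 3.74 kb from one of 97.2 at Ppp1r11. Rnf10 lay 6.74 kb from a peak of 93.5 at Coq5. Rnf135 lay 9.19 kb from a peak at Rhot1, and Rnf224 lay 9.99 kb from one at Tubb4b. Rnf151 came closest to the 1 kb limit from outside: the edge of a peak of 71.2 at Snhg9 and its small nucleolar RNA genes lay 1403 bp from its end. Just inside the limit was Rnf41, with a peak edge 898 bp from its end. Over the 60 non-carriers the median distance was 49.5 kb, and over all coding genes without a gene-end peak it was 113 kb.

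**Figure D3:**
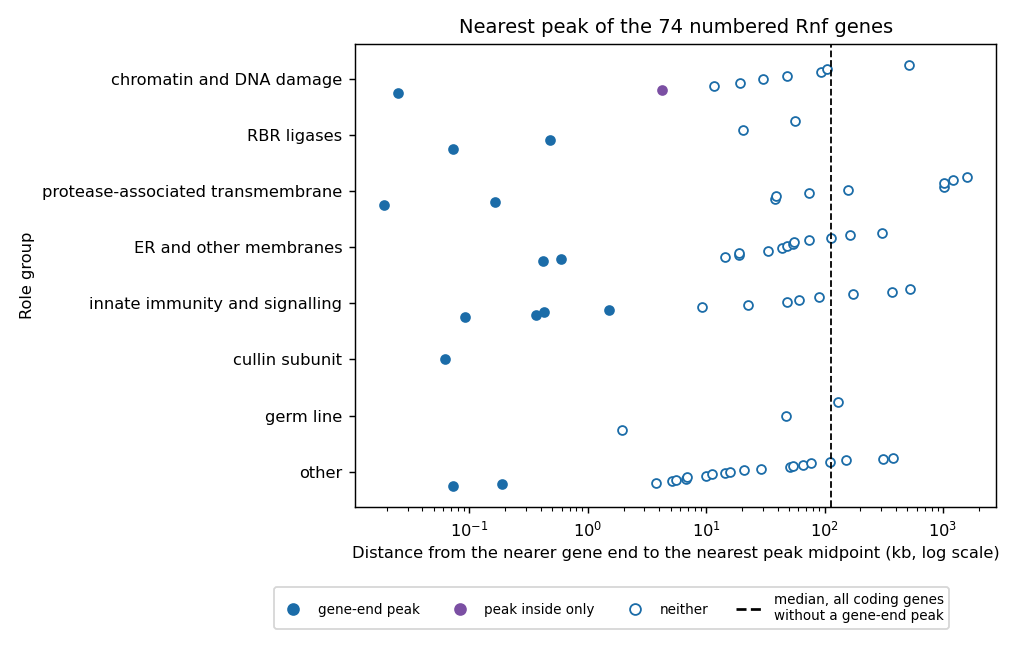
Distance from the nearer end of each of the 74 genes to the nearest peak midpoint (kb, log axis), by role group. Filled blue points are the 14 carriers, the violet point is Rnf126 with its inside peak, open points are the other 59 genes, and the dashed line is the median of all coding genes without a gene-end peak, 113 kb.

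The promoters of the carriers were rich in CpG dinucleotides, with Rnf185 as the exception. The windows of Rnf26, Rnf31, Rnf41 and Rnf114 held no base of the peak counted for the gene. For these 4 of the 14 the composition and motifs describe sequence outside the peak. The Rnf185 peak covered 34 of the 300 bases of its window, so that composition describes mostly sequence outside the peak. The median GC content over the 14 windows of 300 bases was 60.0%, and the median ratio of observed to expected CpG was 0.84. Over 17492 coding genes with a promoter in the table these medians were 56.3% and 0.577. Over the 2529 coding carriers with one they were 60.0% and 0.804, close to the Rnf values. The ratio exceeded the median of all coding genes in 13 of the 14. Rnf44 had the highest GC content, 74.7%, with 35 CpGs in its window, and Rnf34 also had 35. Rnf185 had the lowest, 47.0%, with 6 CpGs and a ratio of 0.369. Of the 60 non-carriers 45 had a promoter in the table (75.0%), under the 80% set for such a check, so carriers and non-carriers were not compared.

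**Figure D4:**
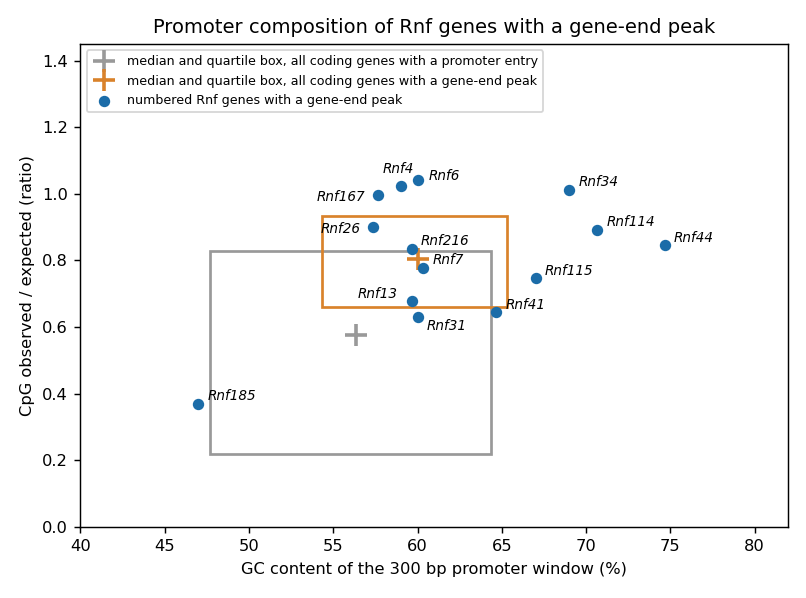
GC content (%) and CpG observed/expected ratio of the promoter window of each of the 14 carriers (points). Crosses and boxes give the median and quartiles of all coding genes with a promoter entry (grey) and of those with a gene-end peak (orange). Rnf185 at 47.0% and 0.369 is the one point low on both axes, with 34 of its 300 bases in the peak.

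Short motifs were searched on both strands of the same windows as a description, and a match is not a shown binding site. GGGCGG, the GC box, occurred in 11 of the 14 (46.3% of all coding promoters, 61.9% of those of coding carriers). CCGGAAG, a core bound by ETS factors, occurred in 7: Rnf4, Rnf6, Rnf31, Rnf41, Rnf44, Rnf114 and Rnf216 (11.9% and 24.9%). The windows of Rnf31, Rnf41 and Rnf114 lie outside the peak. It had 2 matches in the Rnf44 promoter shown above, with first bases 132 and 18 bp before the start. In Rnf6 the match was on the reverse strand and crossed the start itself. In Rnf4 and Rnf216 it lay 22 and 27 bp past the start.

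CCAAT occurred in 7 windows (39.2% and 38.9%). The cyclic AMP response element TGACGTCA was found in Rnf7, 64 bp before the start (2.33% and 3.64%), and the AP-1 type motif TGANTCA in Rnf167, 58 bp before it (7.03% and 4.27%). TATAAA was found in Rnf185, 31 bp past the annotated start (13.3% and 7.28%). The E-box CACGTG, the YY1-type motif AAGATGGCG, the palindrome of NRF1 and the motif of ZNF143 had no match in the 14 windows. They occurred in 7.91, 1.92, 1.33 and 1.60% of all coding promoters, in that order. Rnf26 held none of the 10 motifs. Neighbouring GGGCGG matches overlap in runs of C, as in Rnf7 and Rnf44, so matches of that motif are not separate events. The Rnf115 and Rnf167 windows also hold the annotated starts of Polr3c and Slc25a11 on the opposite strand, so their sequence belongs to both promoters.

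Other RING finger genes gave a wider setting. Of 68 genes named Trim and a number, the tripartite motif family, 5 carried a gene-end peak (7.35%, interval 2.43 to 16.3%), led by Trim41 at 103. Of 11 genes of the membrane-associated March family, Marchf2 and Marchf4 did, both near the lowest score listed (53.5 and 52.5). Of 60 further RING ligase genes taken by symbol, 15 did (25.0%, interval 14.7 to 37.9%), led by Mkrn3 at 194, Uhrf2 at 129 and Rbck1 at 106. Rbck1 encodes another subunit of the linear ubiquitin complex of Rnf31. With the peaks at or above the median score, 8 of these 60 genes and 1 of the 68 Trim genes carried one, beside 7.99% of all coding genes. Cbl and Mdm2, ligases for tyrosine kinases and p53, carried peaks of 75.8 and 57.2. The intervals of the numbered Rnf, Trim and March lists held the 13.9% of all coding genes, that of the ligases taken by symbol began just above it, and differences between the lists were not tested.

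**Figure D5:**
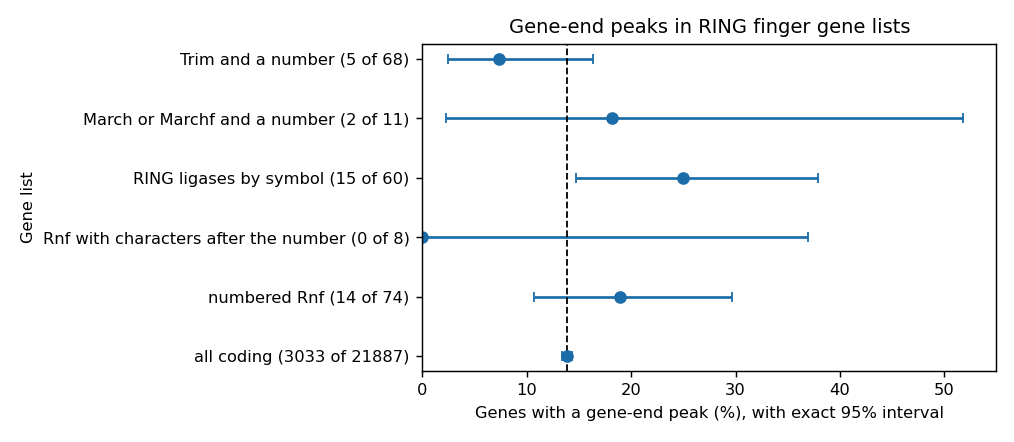
Share of genes with a gene-end peak (%) in 5 RING finger gene lists and among all coding genes, with exact 95% intervals that cover counting error only. The dashed line marks all coding genes, 13.9%, and the numbered Rnf genes lie at 18.9% with an interval of 10.7 to 29.7%.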

How the data were processed

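The deposited data are 1 list of peaks, each with a position and a score. MACS, run by the authors in Galaxy per the file headers, called the peaks, and the deposited score is its value for a peak. Bowtie, Picard and mm10 are named in the submitters' processing notes. Versions, settings and how the IgG library was used are not stated there. Read depth is unknown.

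Positions were made 1-based, and the 5046 of 5079 peaks on assembled chromosomes were compared with RefSeq gene ends of GRCm38.p6 (window 1 kb, overlap of 1 bp or more). Annotated starts, strand and promoter sequence came from the RefSeq promoter table, which held 59 of the 74 genes. A peak wholly away from both windows but overlapping the gene counted as inside. Intervals are exact Clopper-Pearson intervals of 95%. Every carrier was named with its values and every other member by name, except 1 that is not reported here. The members, role groups and lists were chosen with earlier results of these data known. Overlap code was tested on simulated peaks. Python 3.11.15, pandas 2.3.3, NumPy 2.4.6 and SciPy 1.17.1 were used. A planned search for the RING pattern in protein sequence was not run.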

Additional observations from a re-analysis of the deposited data

How the results depend on the processing

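The counts over the family were recomputed under 7 planned settings and 1 chosen after seeing the data. The latter removed peaks that came within 1 kb of an end of another gene. With the peaks at or above the median score, 9 members (12.2%, beside 7.99% of all coding genes) carried a gene-end peak through 9 distinct peaks. Of these peaks 4 were shared with another gene, and no member held an inside peak. Lost were Rnf26, Rnf34, Rnf41, Rnf114 and Rnf185. Without peaks within 1 kb of an end of another gene, 6 members (8.11%, beside 6.76% of all coding genes) carried one through 6 peaks. A window of 5 kb gave 18 carriers (24.3%, beside 18.3% of all coding genes), with 13 shared peaks and 0 inside peaks. It added Rnf39, Rnf126, Rnf151 and Rnf225. A window of 500 bp, the midpoint rule and the rule of at least 50% of the peak each dropped Rnf41 and left 13. That was 17.6%, beside 13.0% of all coding genes at 500 bp and 13.1% under the midpoint and 50% rules. With annotated starts alone 0 members held an inside peak, and with symbols that continue after the number 2 genes did. The median score of the carriers' peaks stayed within 1.5 times its value in all settings. The recomputations of the role groups and other lists under these settings were all added after seeing the data, and their counts moved by more than 1.5 times in 19 of 77. Among them, the innate immunity and signalling group fell from 4 carriers to 1, the ER and other membranes group from 2 to 0, the Trim genes from 5 to 1 and the ligases taken by symbol from 15 to 8 with the peaks at or above the median score. The share of the family lay above that of all coding genes in each setting. All settings use the same peak list and mostly the same genes, so this direction is not separate evidence. The interval of the main share, 10.7 to 29.7%, held the 13.9% of all coding genes. No paired analysis was possible because each antibody has 1 library.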
